A study of Mus musculus with 31 samples.

Results

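Class II molecules of the major histocompatibility complex (MHC) were followed as 9 genes in uterine RNA of mice given placebo or 17β-estradiol (E2). The genes were chosen by name: every probe that the array annotation assigns to H2-Aa, H2-Ab1, H2-Eb1, H2-DMa, H2-DMb1, H2-Oa, H2-Ob, Cd74 or Ciita was taken. This gave 12 probes for 9 of the 35019 genes or features named on the array, and all 9 genes passed the filter on dim signals. In 8 of them the probe was well above background on all 31 arrays, and in Ciita on the 30 arrays that measured it.

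Class II molecules present peptides of ingested proteins to CD4+ T cells, and are made mainly by dendritic cells, macrophages and B cells. H2-Aa and H2-Ab1 encode the α and β chains of I-A, and H2-Eb1 the β chain of I-E, whose α chain is not made in C57BL/6 mice. Cd74 encodes the invariant chain that escorts new class II molecules to the endosome. There H2-DM (H2-DMa and H2-DMb1) loads peptide, and H2-O (H2-Oa and H2-Ob) restrains H2-DM. Ciita encodes the coactivator that class II promoters require. Estrogen is known to change the leukocytes of the uterus and their antigen presentation.

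The design crossed 2 mouse lines, 2 genotypes and 2 treatments. AF2 WT and AF2 KO mice were C57BL6/J, and MISS WT and MISS KO mice were C57BL6/N, so line and background cannot be told apart. The labels do not describe the alleles. As background, the receptor of AF2 KO mice (estrogen receptor α) lacks its activation function 2, and that of MISS KO mice does not reach the plasma membrane. All mice were ovariectomised at 4 weeks of age, kept for 3 weeks, and sampled 6 h after castor oil with 0 µg/kg (placebo, PLB) or 8 µg/kg of E2 under the skin. There were 3 arrays for AF2 KO E2 and 4 for each other group. The RNA was that of uterus, a mixed tissue. Krt18 of epithelium, Hoxa10 of stroma and Myh11 of smooth muscle were well above background on every array. The labels do not say that each array is a separate animal, and p-values then measure the spread between these samples only.

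The 31 arrays lay on 4 slides, each with about 1 array of every group. Per array the 75th percentile of intensity ran from 475 to 918, and between 61.8 and 77.1% of the probes exceeded background clearly. Saturation was found in 0 spots. With 3 or 4 arrays per group, their number limits the precision. Levels below are log2 intensities relative to that percentile, so a level of 0 equals it, and levels of different probes are not compared. A change is called where the adjusted p (Benjamini-Hochberg, over 27071 genes in a limma model) is under 0.05.

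Class II genes share a promoter element in which a GNAAC core (part of the X box, bound by RFX) lies upstream of ATTGG (the Y box, bound by NF-Y). It is shown here as background. Of the 9 genes 8 varied together across arrays, and the part of this element in that was not tested. RefSeq promoter windows of 300 bases on GRCm38.p6 were matched for 6 of the 9 genes. Both strands were searched for GNAAC followed by ATTGG after a gap of 15 to 35 bases, letters that were chosen with these sequences in view. The pair was found in 5 of the 6 genes, or 5 of their 7 windows, and in 3.51% of all 32851 windows. Because the letters were chosen from these sequences, that contrast is not a test. The stretches below run 5′ to 3′ on the strand of the gene, with both motifs in capitals.
H2-Aa, chr17:34287857-34287914, minus strand: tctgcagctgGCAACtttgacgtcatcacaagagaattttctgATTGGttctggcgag
H2-Eb1, chr17:34305766-34305822, plus strand: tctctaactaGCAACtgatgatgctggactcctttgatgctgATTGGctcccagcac
H2-DMb1, chr17:34153087-34153144, plus strand: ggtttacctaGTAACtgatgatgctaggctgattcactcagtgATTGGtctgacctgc
H2-Oa, chr17:34092293-34092350, plus strand: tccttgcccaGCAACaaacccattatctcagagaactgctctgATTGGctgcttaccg
H2-Ob, chr17:34238808-34238862, plus strand: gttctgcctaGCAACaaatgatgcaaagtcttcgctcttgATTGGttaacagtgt
The gap between the motifs was 25 to 28 bases, and ATTGG ended 38 to 56 bases before the start site. H2-DMa had 2 windows, neither with the pair. H2-Ab1, Cd74 and Ciita were not matched. A match is a description of the letters and not a binding site.

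The genes for I-A, I-E and the invariant chain were highest in MISS WT mice given placebo. H2-Aa had levels of 3.02, 3.98, 3.05 and 2.82 there (mean 3.22 ± 0.52, SD, n = 4), against 2.15, 2.56, 2.26 and 2.64 in AF2 WT placebo (2.40 ± 0.24, SD, n = 4). Cd74 had levels of 5.57, 6.23, 5.36 and 5.34 in MISS WT placebo and of 4.85, 4.95, 4.64 and 5.23 in AF2 WT placebo. For both genes, all 4 MISS WT placebo arrays lay above all 4 AF2 WT placebo arrays. Replicate 2 of MISS WT placebo was the highest array of its group in each of the 8 genes other than Ciita.

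**Figure D1:**
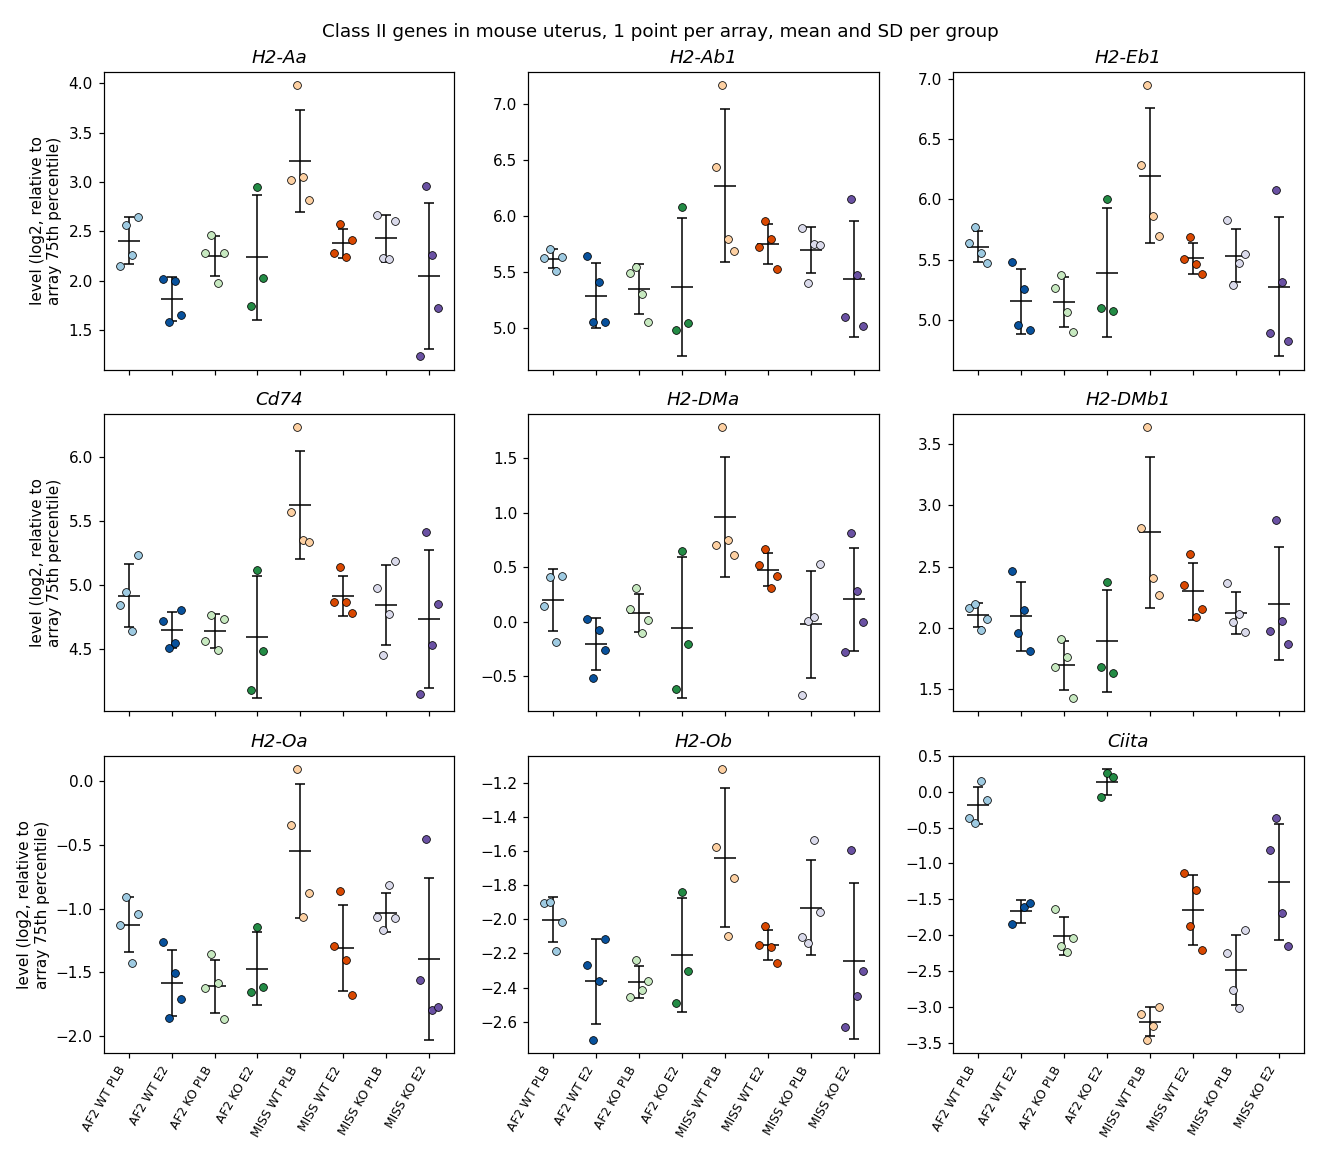
Level of each of the 9 class II genes (log2, relative to the 75th percentile of the array) in the 8 groups, 1 point per array, with the mean and SD as a bar with whiskers. In the 8 panels other than Ciita, MISS WT PLB has the highest mean with replicate 2 on top, while Ciita is lowest in that group.

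The mean of H2-Aa, H2-Ab1, H2-Eb1 and Cd74, each centred over the 31 arrays, orders the groups. MISS WT placebo stood at 0.75 ± 0.54 (SD, n = 4). MISS WT E2 at 0.06 ± 0.14, AF2 WT placebo at 0.06 ± 0.13 and MISS KO placebo at 0.05 ± 0.23 followed (SD, n = 4 each). Then came AF2 KO E2 at -0.18 ± 0.56 (SD, n = 3), MISS KO E2 at -0.20 ± 0.56, AF2 KO placebo at -0.23 ± 0.15 and AF2 WT E2 at -0.35 ± 0.20 (SD, n = 4 each). Among the 7 groups below MISS WT placebo, each pair of neighbours in this order overlapped in its arrays. The lowest MISS WT placebo array, at 0.31, lay above the highest MISS WT E2 array, at 0.26.

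In MISS WT mice 5 of the 9 class II genes fell after E2, by less than 2-fold each on the 75th percentile scale, and Ciita rose. Together 6 were called, while 62.2% of all genes were called in either direction. H2-Aa, H2-Eb1, Cd74, H2-Oa and H2-Ob were those called lower, as were 27.1% of all genes. Higher calls made up 35.1% of all genes. H2-Ab1, H2-DMa and H2-DMb1 had negative values that were not called. The median change of the 9 genes was -0.52, and that of all genes tested was 0.16. Fewer cells of a type and less RNA per cell cannot be told apart in these samples.

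In MISS WT mice H2-Aa had levels of 2.28, 2.57, 2.24 and 2.41 after E2, all below the 4 placebo arrays. Its change was -0.84 ± 0.28 (log2, SE; adjusted p = 0.012), or 1.79-fold lower. H2-Eb1 had levels of 6.28, 6.94, 5.86 and 5.70 after placebo and of 5.51, 5.69, 5.46 and 5.39 after E2. These groups did not overlap either, and the change was -0.68 ± 0.25 (adjusted p = 0.02). Cd74 had levels of 4.86, 5.14, 4.87 and 4.78 after E2, below every placebo array. With Ciita, the arrays of the groups did not overlap in 4 of the 9 genes, against 54.7% of all genes. The change of Cd74 was -0.71 ± 0.23 (adjusted p = 0.0082), or 1.64-fold lower. H2-Ab1, the partner of H2-Aa, differed by -0.52 ± 0.27 (adjusted p = 0.096). Its placebo arrays spread from 5.69 to 7.17, and its E2 arrays, at 5.53 to 5.95, overlapped them. A further probe of H2-Ab1 that overlaps the first gave -0.60 ± 0.28.

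Of the genes that govern peptide loading, H2-Oa was called lower in MISS WT mice under each processing of all arrays tried, H2-DMa under none, and the calls of H2-Ob and H2-DMb1 changed with the processing. H2-Oa had levels of -0.34, 0.10, -1.06 and -0.87 after placebo and of -1.29, -0.87, -1.41 and -1.68 after E2 in MISS WT mice. The groups overlapped, with a change of -0.76 ± 0.25 (adjusted p = 0.01). H2-Ob changed by -0.51 ± 0.20 (adjusted p = 0.026). H2-DMa differed by -0.49 ± 0.27 (adjusted p = 0.13) and H2-DMb1 by -0.48 ± 0.24 (adjusted p = 0.079). With quantile normalization H2-DMb1 was called, at -0.83 (adjusted p = 0.0023), and H2-Ob was not, at -0.42 (adjusted p = 0.070). H2-DMb1 was also called with normexp background correction, the slide as a block and the authors' deposited matrix, and H2-Ob was not called with median scaling. Whether H2-O changed more than H2-DM was not tested. The 95% interval of H2-DMa, -1.05 to 0.08, includes the value of H2-Oa.

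These 5 lower calls rested on 1 placebo array. Without MISS WT PLB replicate 2, H2-Aa was at -0.58, Cd74 at -0.51, H2-Eb1 at -0.43, H2-Oa at -0.55 and H2-Ob at -0.34, and none of these was called. Ciita alone was called, at 1.47. The 8 other genes remained negative. Leaving out any other MISS WT array gave 5 to 8 calls. Within slides, each of which holds 1 array of MISS WT placebo and 1 of MISS WT E2, the median change of the 9 genes was -0.71, -1.10, -0.34 and -0.31 on slides 1 to 4. Slide 2 holds that array. It also holds replicate 2 of MISS WT E2, MISS KO E2 and AF2 KO placebo, each the highest array of its group in the 8 genes other than Ciita. AF2 WT placebo replicate 2, on the same slide, was highest in 5 of the 8. Replicate 2 of AF2 WT E2 and of MISS KO placebo, also there, were each highest in 0 and lowest in 5. The part of the slide in these levels was not tested.

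In AF2 WT mice all 9 values were negative, but Ciita alone was called, while 57.6% of all genes were called in either direction. H2-Aa had levels of 2.01, 1.58, 1.99 and 1.65 after E2, all below the placebo arrays given above. Arrays did not overlap in H2-Aa and Ciita, 2 of the 9 genes, against 49.6% of all genes. The difference of H2-Aa was -0.59 ± 0.28 (adjusted p = 0.074). H2-Eb1 differed by -0.45 ± 0.25, H2-Oa by -0.46 ± 0.25 and Cd74 by -0.27 ± 0.23. H2-DMb1 stood at -0.01 ± 0.24. The median was -0.40, against -0.07 for all genes. H2-Ob differed by -0.36 ± 0.20, while its other tested probe gave -0.86 ± 0.29 (adjusted p = 0.013 over all probes), so the probes of H2-Ob disagree on the call.

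**Figure D2:**
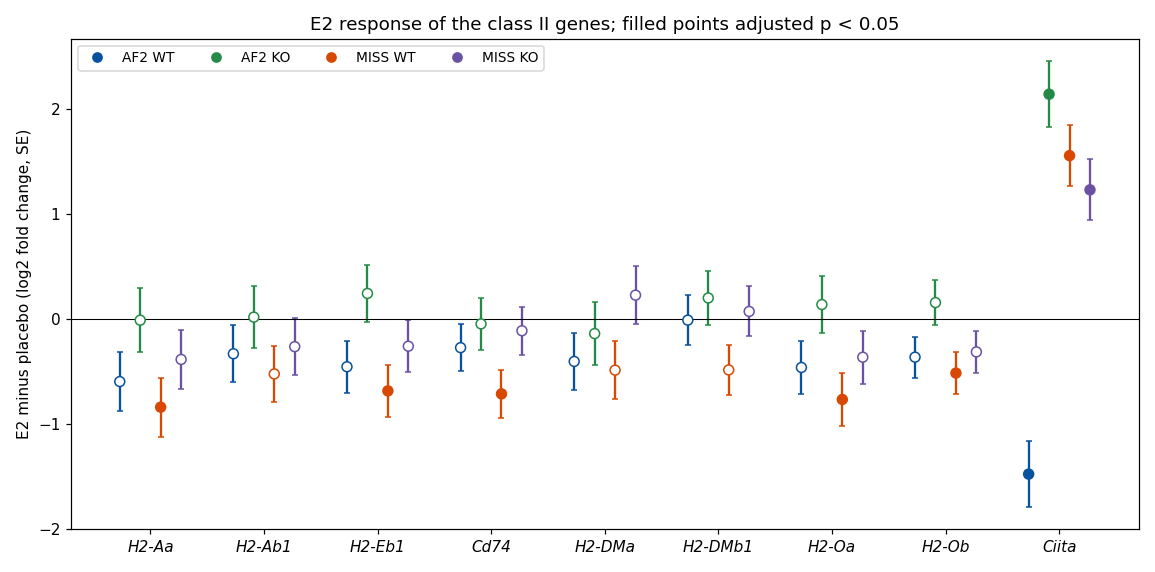
E2 minus placebo (log2 fold change, with SE as whiskers) for the 9 class II genes in AF2 WT, AF2 KO, MISS WT and MISS KO mice. Filled points passed an adjusted p under 0.05: 5 genes lie below 0 in MISS WT, and Ciita lies below 0 in AF2 WT and above 0 in the other genotypes.

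The AF2 WT calls depended on the normalization and on the arrays in the fit. With quantile normalization 5 genes were called lower, namely H2-Aa at -0.83, H2-Ab1 at -0.75, H2-Eb1 at -0.87, Cd74 at -0.74 and Ciita at -1.40. With the authors' deposited matrix the same 5 were called lower, at -0.82, -0.70, -0.91, -0.71 and -1.25. Fitted on the AF2 WT arrays alone, H2-Aa (adjusted p = 0.012), H2-Eb1 (adjusted p = 0.030) and H2-Oa (adjusted p = 0.042) were called by limma beside Ciita. With the mean of probes H2-Ob was called, at -0.61. Median scaling and normexp left Ciita as the 1 call. H2-Ab1, H2-Eb1 and Cd74 belong to the 2327 genes with a mean level of at least 4. The median change of such bright genes in AF2 WT was 0.14 on the 75th percentile scale and -0.08 after quantile normalization. In MISS WT it was 0.32 and -0.05, and the members there were at -1.21 for H2-Aa, -1.04 for H2-Ab1, -1.21 for H2-Eb1 and -1.26 for Cd74 after quantile normalization, each over 2-fold. The part of this shift of bright genes in the calls was not tested.

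In AF2 KO mice E2 was followed by small values on both sides of 0 for 8 of the genes, and Ciita alone was called, against 3.68% of all genes. Ciita was also the 1 gene of 9 whose arrays did not overlap, against 16.6% of all genes. H2-Aa had levels of 1.74, 2.95 and 2.02 after E2 and of 2.28, 2.46, 1.97 and 2.28 after placebo. The difference was -0.01 ± 0.30, with a 95% interval from -0.64 to 0.62. H2-Eb1 stood at 0.24 ± 0.27 and Cd74 at -0.05 ± 0.24. AF2 KO E2 replicate 2 was the highest array of its group in all 8 genes. Without it H2-Aa was at -0.37, H2-Ab1 at -0.34, H2-DMa at -0.49 and Cd74 at -0.31, none of them called. Under at least 1 other processing the sign turned for H2-Aa, H2-Ab1, H2-Oa, H2-Ob and Cd74, each within 0.16 of 0.

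Within the AF2 line, the response of the KO minus that of the WT was positive for all 9 genes, although Cd74, H2-Ab1, H2-DMa and H2-DMb1 turned negative under median scaling. It was called for Ciita only, against 51.9% of all genes. H2-Eb1 differed by 0.70 ± 0.37 (adjusted p = 0.12) and H2-Aa by 0.58 ± 0.41 (adjusted p = 0.25). The intervals, from -0.06 to 1.45 for H2-Eb1 and from -0.27 to 1.44 for H2-Aa, include both no difference and one over 2-fold. H2-Eb1 was called with quantile normalization (1.06), the authors' deposited matrix (1.19) and the slide as a block (0.78). Without AF2 KO E2 replicate 2 the difference was 0.39 for H2-Eb1 and 0.23 for H2-Aa, and that of Cd74, H2-Ab1, H2-DMa and H2-DMb1 turned negative.

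In MISS KO mice E2 gave 1 call, Ciita, while 57.3% of all genes were called. H2-Aa had levels of 1.24, 2.96, 2.26 and 1.72 after E2 and of 2.67, 2.23, 2.21 and 2.60 after placebo. The groups overlapped, as in all 9 genes, while 53.1% of all genes had groups that did not. The difference was -0.38 ± 0.28 (adjusted p = 0.26). Cd74 had levels of 4.14, 5.41, 4.53 and 4.85 after E2, and differed by -0.11 ± 0.23. H2-Ob was at -0.31, while its other tested probe gave -0.79 ± 0.29 (adjusted p = 0.023 over all probes in limma). With the mean of probes H2-Ob was called, at -0.55. MISS KO E2 replicate 2 was the highest array of its group in all 8 genes. Without it H2-Aa at -0.69, H2-Oa at -0.68 and H2-Ob at -0.53 were called lower beside Ciita, which stayed higher at 0.94. With quantile normalization the calls were H2-Ab1 at -0.69, H2-Eb1 at -0.71, Cd74 at -0.60 and Ciita at 1.30. With the authors' deposited matrix these were called at -0.67, -0.71, -0.56 and 1.06, and H2-Aa was called at -0.64. H2-DMa, a chain of the peptide loader, was positive in MISS KO in each of these settings and was not called. It was at 0.23 ± 0.27 in the first of them and at 0.02 without MISS KO E2 replicate 2. Within slides its difference ran from -0.53 to 0.82.

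The response of MISS KO minus that of MISS WT was called for 0 of the 9 genes and for 0.901% of all genes in limma. At an unadjusted p under 0.05 it was also 0 of 9, against 10.7% of all genes. The values ran from 0.20 for H2-Ob to 0.71 for H2-DMa, with Ciita at -0.33. The 95% interval for Cd74, from -0.06 to 1.26, does not exclude a difference over 2-fold. The response of MISS WT minus that of AF2 WT was called for Ciita alone, against 9.5% of all genes, and H2-Aa, H2-Ab1, H2-Eb1 and Cd74 differed by -0.24, -0.19, -0.23 and -0.44. Without MISS WT PLB replicate 2 the first 3 turned positive, at 0.011, 0.11 and 0.019, and Cd74 was at -0.24.

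**Figure D3:**
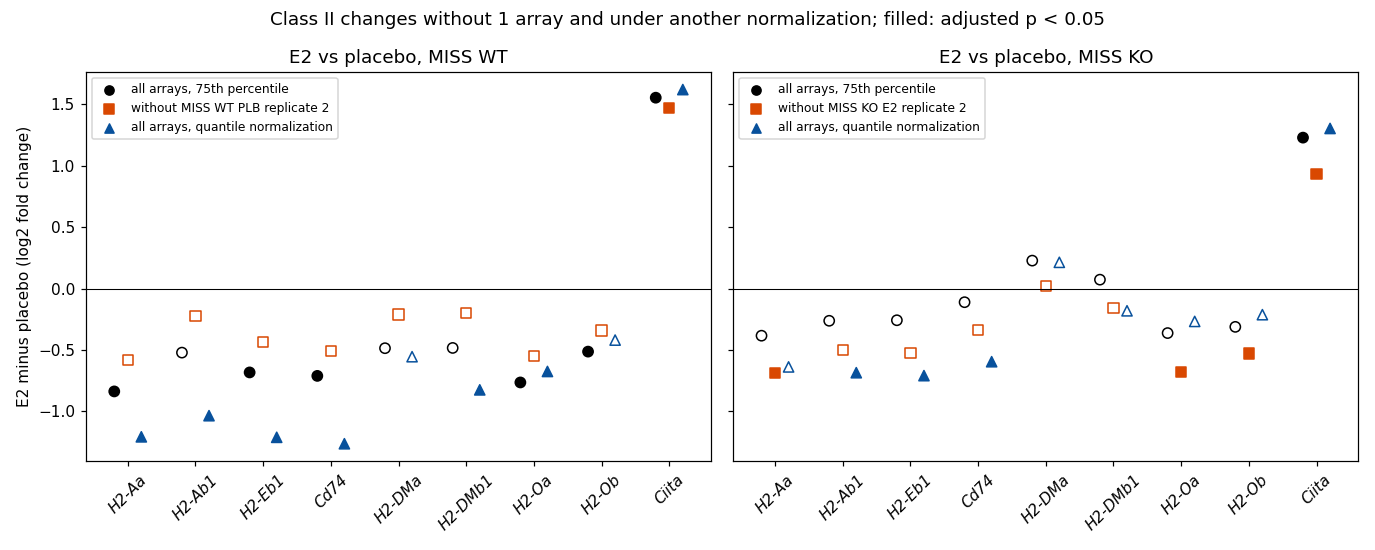
E2 minus placebo (log2 fold change) for the 9 genes in MISS WT (left) and MISS KO (right), with all arrays on the 75th percentile scale (circles), without replicate 2 of the group named (squares) and with all arrays after quantile normalization (triangles). Filled points passed an adjusted p under 0.05. In MISS WT the squares other than Ciita are open, and in MISS KO 3 squares below 0 are filled.

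Under placebo, the MISS WT uterus had higher Cd74 and lower Ciita than the AF2 WT uterus. These were 2 calls of 9 genes, while 11.7% of all genes were called. Cd74 differed by 0.71 ± 0.23 (adjusted p = 0.041), or 1.63-fold. The other 7 genes lay between 0.36 ± 0.20 for H2-Ob and 0.81 ± 0.28 for H2-Aa (adjusted p = 0.062) and were not called. These 8 genes, which vary together, were higher in MISS WT on each of the 4 slides, as were 12.4% of all genes. The arrays of the groups did not overlap in 5 of the 9, against 12.3% of all genes. With slide as a block, 4 were called higher. Without MISS WT PLB replicate 2, Cd74 was at 0.50 and none was called higher. Leaving out AF2 WT PLB replicate 1, 2 or 3 or MISS WT PLB replicate 1 also ended the call of Cd74.

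Between KO and WT mice under placebo, Ciita in the AF2 line was the 1 call, against 9.04% of all genes there. The other 8 genes of the AF2 line lay between -0.48 for H2-Oa and -0.11 for H2-DMa, and H2-Aa and H2-DMa turned positive under median scaling. The AF2 KO and AF2 WT arrays did not overlap in H2-DMb1, H2-Eb1 and H2-Ob, beside Ciita, 4 of 9 against 14.2% of all genes. In the MISS line 0 of 9 were called by limma, against 0.887% of all genes. At an unadjusted p under 0.05 there were 6 of 9 lower and Ciita higher, against 11.1% of all genes in either direction and 5.25% lower. H2-DMa stood at -0.99 ± 0.27 (adjusted p = 0.09), Cd74 at -0.78 ± 0.23 (adjusted p = 0.11) and H2-Aa at -0.79 ± 0.28 (adjusted p = 0.23). The arrays of the 2 groups did not overlap in these 3 genes, against 5.7% of all genes. H2-DMa was called with slide as a block and in the authors' deposited matrix. Without MISS WT PLB replicate 2 the median of the 9 genes went from -0.66 to -0.37. The comparisons above share the MISS WT placebo arrays, so their values are not independent.

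The 8 genes other than Ciita varied together from array to array. Their 28 pairs had Pearson correlations of 0.727 to 0.970 over 31 arrays, with a median of 0.844. After the group means were removed, the range was 0.673 to 0.977. These are descriptions: the arrays share slides, scaling and tissue. Ciita correlated with the other 8 at -0.374 to -0.230 over levels, and at 0.0793 to 0.256 over deviations from group means.

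The genes whose levels followed the mean of H2-Aa, H2-Ab1, H2-Eb1 and Cd74 most closely, of all genes outside the 9, were Pld4 (r = 0.944), Selplg (0.941), Nckap1l (0.938), Mpeg1 (0.937), Ly86 (0.932), Cd52 (0.925) and C1qc (0.925), over 31 arrays. Selplg encodes a selectin ligand of leukocytes, Mpeg1 a pore-forming protein of macrophages, and C1qc a chain of complement C1q. Within groups the closest were Il2rg (0.928), Selplg (0.924), Cd52 (0.923) and Pld4 (0.921).

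Markers of immune cells moved with the class II genes, and within groups so did markers of several other cells. The class II mean correlated with the mean level of 10 pan-leukocyte markers at 0.868, with 14 macrophage markers at 0.923, with 11 dendritic cell markers at 0.917, with 10 T cell markers at 0.876 and with 9 B cell markers at 0.632. Within groups these were 0.879, 0.910, 0.933, 0.880 and 0.634. With 12 epithelial markers the correlation was -0.459 over levels and 0.0820 within groups. For markers of granulocytes, stroma, smooth muscle, endothelium and lymph vessel or fat it was 0.370, 0.333, 0.132, 0.300 and 0.394 over levels, and 0.576, 0.502, 0.434, 0.608 and 0.271 within groups. The summed pan-leukocyte level ran from 5.21 to 6.44 in MISS WT placebo, from 5.10 to 5.52 in MISS WT E2 and from 4.58 to 4.98 in AF2 WT placebo. It ran from 4.52 to 4.91 in AF2 WT E2, from 4.47 to 4.73 in AF2 KO placebo, from 4.05 to 5.28 in AF2 KO E2, from 4.69 to 5.01 in MISS KO placebo and from 4.63 to 5.62 in MISS KO E2. The highest array of MISS WT placebo, of MISS KO E2 and of AF2 KO E2 was in each case the replicate 2 that stood highest in class II. Ptprc, Adgre1, Itgax and Cd3e, defining markers of leukocytes, macrophages, dendritic cells and T cells, were well above background on every array. The part of cell numbers in the class II values was not tested.

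**Figure D4:**
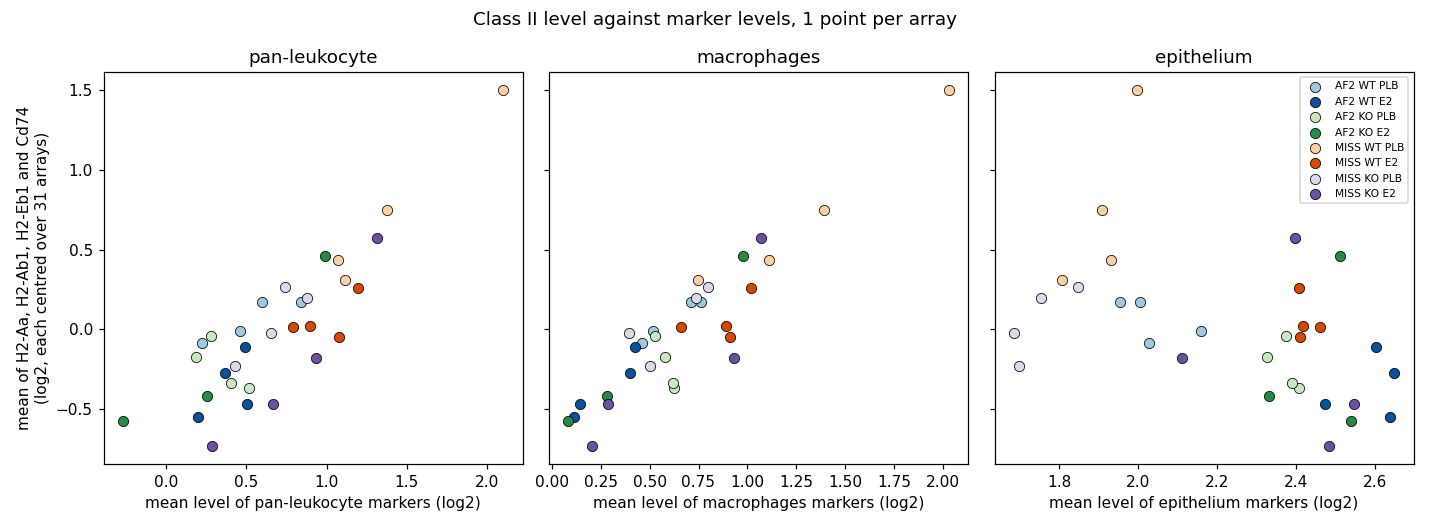
Mean of H2-Aa, H2-Ab1, H2-Eb1 and Cd74 (log2, each centred over the 31 arrays) against the mean level of pan-leukocyte, macrophage and epithelial markers (log2), 1 point per array, coloured by group. The class II mean climbs with both immune marker lists (r = 0.868 and 0.923), and in the epithelial panel the groups separate along the x axis with no such climb.

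The marker lists changed with the groups as follows. In MISS WT against AF2 WT under placebo, 9 of 10 pan-leukocyte, 6 of 14 macrophage, 6 of 10 T cell and 0 of 11 dendritic cell markers were called higher, against 3.04% of all genes. Without MISS WT PLB replicate 2 the counts were 0, 3, 4 and 0. Over all arrays of the same comparison, 2 of 9 B cell, 1 of 11 dendritic cell and 1 of 8 granulocyte markers were called lower. Of the B cell and granulocyte markers 0 were called higher. Of all 27071 genes, 2332 were called lower there. After E2 in MISS WT, 7 of 14 macrophage and 6 of 10 T cell markers were called lower and 1 and 0 higher, among the lower ones Adgre1 at -1.23 ± 0.34 and Cd3g, a chain of the T cell receptor complex, at -1.61 ± 0.30. Without MISS WT PLB replicate 2 the lower counts were 3 and 5. Of 10 pan-leukocyte markers 2 were called lower and 0 higher, and without that array 0 were lower. Of all genes in MISS WT, 27.1% were called lower and 35.1% higher. In the dendritic cell list 4 of 11 were called lower and 2 higher, and in the B cell list 1 of 9 each way. Itgax was not called in any genotype. In AF2 WT, AF2 KO and MISS KO 0 of 10 pan-leukocyte markers were called after E2. In AF2 WT, 4 of 14 macrophage markers were called lower after E2 and 2 higher, and 1 of 10 T cell markers each way. Of all genes there, 30% were called lower and 27.6% higher. In MISS KO, 4 of 14 macrophage markers were called lower after E2 and 2 higher, and 3 of 9 B cell markers lower and 0 higher. Of its dendritic cell markers 2 of 11 were called lower and 1 higher, and 0 of 10 T cell markers were called. Without MISS KO E2 replicate 2, the count of T cell markers called lower was 3. Of all genes in MISS KO, 27.2% were called lower and 30.1% higher.

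Of the transcription factors that bind class II promoters, the RFX subunits and the NF-Y subunits were called in opposite directions after E2. In AF2 WT and MISS WT 3 of 7 genes were called higher and 3 lower, and in MISS KO the counts were also 3 and 3. Of all genes, 27.6%, 35.1% and 30.1% were called higher in AF2 WT, MISS WT and MISS KO, and 30%, 27.1% and 27.2% lower. Rfxank, a subunit of RFX, was at -1.33 ± 0.12 in AF2 WT, -1.60 ± 0.12 in MISS WT and -1.5 ± 0.12 in MISS KO. Rfx5, the subunit that binds DNA, was at -0.84, -0.89 and -0.59. Nfyb was at 0.64, 0.86 and 0.74. In AF2 KO 0 of 7 were called by limma, and Rfxank was at -0.21 ± 0.13. The median of the 7 was -0.29 in AF2 WT, -0.30 in MISS WT and -0.15 in MISS KO, against -0.07, 0.16 and 0.03 over all genes.

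Interferon-γ induces Ciita, with IRF1 among the factors that act on the gene. After E2, Socs1, an inhibitor of that signal, rose by 4.40 ± 0.11 in AF2 WT, 4.18 ± 0.11 in MISS WT and 3.97 ± 0.11 in MISS KO, and was at -0.02 ± 0.12 in AF2 KO. Ptpn2, a phosphatase that restrains the same signal, rose by 1.47, 1.75 and 1.59. Irf1 stayed between -0.04 and 0.16 in the 4 genotypes and was not called. Of 9 genes of this axis, 4, 4 and 5 were called higher in AF2 WT, MISS WT and MISS KO, and 1, 1 and 0 lower. Higher calls made up 27.6%, 35.1% and 30.1% of all genes, and lower calls 30%, 27.1% and 27.2%. The lower call in AF2 WT was Ifngr2, a chain of the interferon-γ receptor, at -0.26 ± 0.11.

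Genes of class II antigen processing were called in both directions. Ctsb, a cysteine protease, rose by 1.34 ± 0.12 in AF2 WT, 1.58 ± 0.12 in MISS WT and 1.83 ± 0.12 in MISS KO, and Lgmn, an asparaginyl endopeptidase, by 0.57, 0.60 and 1.06. Ifi30, a thiol reductase of the endosome, fell by 0.75, 0.85 and 0.68, and Cst3, a protease inhibitor, fell by 0.62, 0.77 and 0.86. Ctss, the protease that removes the last piece of invariant chain, was not called, at -0.44 ± 0.38, -0.79 ± 0.38 and -0.03 ± 0.38. Of 10 such genes, 2 were called higher in each of these genotypes, and 3, 4 and 3 lower. Of all genes, 27.6%, 35.1% and 30.1% were called higher there, and 30%, 27.1% and 27.2% lower.

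Costimulatory and coinhibitory proteins accompany class II in the contact with T cells. Of 7 such genes, 5 were called lower in AF2 WT, 5 in MISS WT and 4 in MISS KO. Of all genes, 30%, 27.1% and 27.2% were called lower there. Cd83, a protein of mature dendritic cells, fell by 2.08 ± 0.19, 1.89 ± 0.19 and 2.10 ± 0.19. Cd274, which encodes PD-L1, fell by 1.44, 2.38 and 1.83, and Icosl by 1.1, 1.81 and 1.57. In AF2 KO Cd80 was the 1 call, higher at 0.52 ± 0.14, against 3.68% of all genes called. This call was lost without AF2 KO E2 replicate 2. Without MISS WT PLB replicate 2 the MISS WT count remained 5. Many of these genes are also made by cells other than leukocytes.

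Outside the 9 genes, H2-DMb2, a further β chain of H2-DM, fell by 1.15 ± 0.43 in AF2 WT and by 1.74 ± 0.43 in MISS WT. H2-DMb1 and H2-DMb2 are close copies, so their signals may not be fully separate. H2-Eb2 rose by 0.74 ± 0.26 in MISS WT and was lower in MISS WT than in AF2 WT under placebo, at -1.31 ± 0.26. H2-Ea-ps, the α chain of I-E, did not pass the filter on dim signals. Of 15 genes of class I presentation, 9 were called higher in MISS WT than in AF2 WT under placebo and 6 were not called, against 3.04% of all genes called higher. There were 7 without MISS WT PLB replicate 2. In the same comparison 9 of 10 pan-leukocyte markers were called higher, and their part in the class I values was not tested. Among the 9 were B2m, the light chain, at 0.94 ± 0.27 and Nlrc5, the class I counterpart of Ciita, at 1.13 ± 0.28.

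Ciita had another pattern than the genes it is known to switch on: E2 lowered it in AF2 WT and raised it in AF2 KO, MISS WT and MISS KO. It had levels of -0.37, -0.43, 0.14 and -0.12 in AF2 WT placebo and of -1.85, -1.60 and -1.55 after E2, with 1 value missing because its spot was marked as an outlier. The change was -1.47 ± 0.31 (adjusted p = 0.00025), or 2.78-fold lower. In AF2 KO it had levels of -1.63, -2.14, -2.23 and -2.04 after placebo and of -0.07, 0.26 and 0.20 after E2. The groups lay apart in both genotypes and in opposite directions, the AF2 KO change being 2.14 ± 0.31 (adjusted p = 0.00029). The response of AF2 KO minus that of AF2 WT was 3.61 ± 0.44 (adjusted p = 2.3e-07), and on the 3 slides that allow it 3.04 to 4.23.

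In the MISS line Ciita was lowest of all groups in MISS WT placebo, with levels of -3.09, -3.45, -3.26 and -3.00. After E2 they were -1.14, -1.88, -1.37 and -2.21, all higher, a change of 1.56 ± 0.29 (adjusted p = 4.8e-05) or 2.94-fold. In MISS KO it had levels of -2.25, -2.76, -3.01 and -1.93 after placebo and of -0.81, -0.37, -1.68 and -2.15 after E2. These overlapped, with a change of 1.23 ± 0.29 (adjusted p = 0.00072) and a negative difference on 1 of the 4 slides. The response of MISS WT minus that of AF2 WT was 3.03 ± 0.43 (adjusted p = 7.5e-05). Under placebo MISS WT minus AF2 WT was -3.01 ± 0.29 (adjusted p = 1.9e-07), or 8.05-fold lower, and AF2 KO minus AF2 WT was -1.81 ± 0.29 (adjusted p = 0.00019), or 3.52-fold lower.

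From high to low, the group means of Ciita were 0.13 in AF2 KO E2, -0.19 in AF2 WT placebo, -1.26 in MISS KO E2, -1.65 in MISS WT E2, -1.67 in AF2 WT E2, -2.01 in AF2 KO placebo, -2.49 in MISS KO placebo and -3.20 in MISS WT placebo. Each pair of neighbours in this order overlapped in its arrays. The overlap of MISS KO placebo with MISS WT placebo was of 1 array, at -3.01.

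The level of Ciita rests on a single probe, as do those of Cd74, H2-Aa, H2-DMa, H2-DMb1, H2-Eb1 and H2-Oa. Whether the signal of the Ciita probe is RNA of Ciita alone could not be settled from these arrays, and its values are given with that limit.

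Probe positions are on mm9 as the array annotation gives them, with no exon or intron stated there. The probes of H2-Oa, H2-DMa, H2-DMb1, H2-Ob, H2-Ab1, H2-Aa and H2-Eb1 lie on chromosome 17, from chr17:34232033-34232092 for H2-Oa to chr17:34453075-34453134 for H2-Eb1. Cd74 lies on chromosome 18. The third probe of H2-Ob was well above background on 1 array and was not tested.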

How the data were processed

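Uterine RNA was labelled with Cy3 and hybridised to 31 one-colour Agilent arrays, per the labels' protocols. The deposited scanner files hold spot intensity and, per the file headers, were written by Agilent Feature Extraction 10.10.1.1 with probe positions on mm9. The authors' deposited matrix holds log2 values of 43753 probes with equal medians (7.56). Its normalization step is not given in the sources used here, although the submitters' processing notes name limma, and each of its columns matched its own array best (31 of 31).

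Of the processed signal, outlier spots were left out, spots averaged per probe, and log2 values taken minus each array's 75th percentile. A probe was kept if, in 1 group or more, all measured arrays had it well above background (40348 of 55681), and each gene was represented by its brightest probe. A model of 8 group means was fitted with limma 3.58.1 in R 4.3.3 (23 residual degrees of freedom) to 27071 genes, with 10 contrasts, Benjamini-Hochberg adjustment and a threshold of 0.05. Intervals are 95%. In simulated data for E2 in AF2 WT over the same genes, 71 of 108 changes of 1 (log2) and 88 of 92 of 2 were recovered.

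All 9 members were reported. Of listed pathway and marker genes, up to 3 called genes per direction and contrast could be named, beside fixed markers. Likeness is Pearson's r with the mean of 4 members. The members and lists were chosen with earlier results of these data known. Alternatives were normexp (offset 50), quantile and median scaling, the deposited matrix, no or a strict filter, slide as a block, the mean of probes, only the groups compared, and leaving out each array. Some items are not reported here.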

Additional observations from a re-analysis of the deposited data

Results flagged for a closer look

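H2-DMa had a level of 1.79 in MISS WT PLB replicate 2, where the next array of the group stood at 0.75. This gap was wide against the range of the group by Dixon's criterion, in 1 of 62 combinations of gene and group examined, while chance gives about 5 percent. The same array was the highest of its group in the 7 other genes besides Ciita.

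The E2 response of Ciita differed between genotypes. The response of AF2 KO minus that of AF2 WT was 3.61, and the response of MISS WT minus that of AF2 WT was 3.03, both tested as interaction terms in limma. Ciita was measured by 1 probe.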

How the results depend on the processing

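Replicate numbers follow accession order and were not used to pair arrays. Each slide holds 1 array of every group, except that slide 2 has none of AF2 KO E2, and the slide was fitted as a block. Of 90 counts of called class II genes (10 comparisons under 9 alternatives), 72 lay within 1.5 times the first. For MISS WT against AF2 WT under placebo the count of 2 became 5 with normexp, 4 with quantile normalization, 5 with median scaling, 5 with the deposited matrix, 5 with slide as a block and 1 with only the groups compared. For E2 in AF2 WT the count of 1 became 5 with quantile normalization, 5 with the matrix, 2 with the mean of probes and 4 with only the groups compared. For E2 in MISS KO the count of 1 became 4, 5 and 2 with quantile normalization, the matrix and the mean of probes. The AF2 KO minus WT count of 1 became 2 with quantile normalization, the matrix and the slide block. The MISS KO against WT placebo count of 0 became 1 with the matrix and the slide block. The cause was not tested.

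Leaving out 1 array gave counts of 1 to 8 for E2 in MISS WT (1 without MISS WT PLB replicate 2), 1 to 4 in MISS KO (4 without MISS KO E2 replicate 2), 1 to 5 for MISS WT against AF2 WT placebo and 0 to 1 for MISS KO against WT placebo (1, H2-DMa, without MISS WT PLB replicate 4). It gave 1 to 1 in the other comparisons, and 0 to 0 for MISS KO minus WT.

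The calls of Ciita after E2 were kept in every alternative, with adjusted p from 9.2e-05 to 0.0021 in AF2 WT, 3.5e-05 to 0.0078 in AF2 KO, 2.1e-05 to 0.00047 in MISS WT and 4e-05 to 0.029 in MISS KO. No called value turned its sign. 20 uncalled values did under an alternative. For E2 in AF2 KO, H2-Ab1 was at -0.0037 with normexp, -0.045 with quantile normalization, -0.16 with median scaling and -0.055 with the matrix. H2-Aa was at 0.016 with quantile normalization, 0.053 with the matrix and 0.076 with the slide block, H2-Oa at -0.037 and H2-Ob at -0.019 with median scaling, and Cd74 at 0.0084 with the slide block. For E2 in MISS KO, H2-DMb1 was at -0.18 with quantile normalization and -0.22 with the matrix, and Cd74 at 0.012 with median scaling. For E2 in AF2 WT, H2-DMb1 was at 0.21 with median scaling. With median scaling the AF2 KO minus WT response was -0.046 for H2-Ab1, -0.17 for Cd74, -0.18 for H2-DMb1 and -0.13 for H2-DMa, and AF2 KO against WT placebo was 0.024 for H2-Aa and 0.067 for H2-DMa.

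Leaving out 1 array turned 32 uncalled values. For E2 in AF2 KO the ranges were -0.31 to 0.16 for Cd74, -0.37 to 0.24 for H2-Aa, -0.34 to 0.21 for H2-Ab1, -0.49 to 0.14 for H2-DMa, -0.040 to 0.33 for H2-DMb1, -0.062 to 0.40 for H2-Eb1, -0.026 to 0.23 for H2-Oa and -0.030 to 0.30 for H2-Ob. In MISS KO they were -0.34 to 0.086 for Cd74 and -0.16 to 0.18 for H2-DMb1, and in AF2 WT -0.13 to 0.085 for H2-DMb1. For AF2 KO minus WT they were -0.035 to 0.43 for Cd74, -0.0083 to 0.54 for H2-Ab1, -0.088 to 0.55 for H2-DMa and -0.030 to 0.34 for H2-DMb1. For MISS KO minus WT they were -0.039 to 0.45 for H2-Ab1 and -0.016 to 0.35 for H2-Ob. For MISS WT minus AF2 WT they were -0.37 to 0.011 for H2-Aa, -0.39 to 0.11 for H2-Ab1, -0.20 to 0.19 for H2-DMa, -0.40 to 0.019 for H2-Eb1 and -0.30 to 0.021 for H2-Ob.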
